A study of Homo sapiens with 32 samples.

Results

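In 786-O cells, 1192 regions of RNA carried an m6A peak in both WT libraries and in none of the 4 libraries of the 2 SETD2 knockout clones. They were chosen by these calls alone: overlapping peaks of the 8 786-O lists on chromosomes 1 to 22, X and Y were merged into 78903 regions, and a library called a region when a peak of its list overlapped it by at least 1 bp. The lost regions were 1.51% of all regions and 6.12% of the 19463 regions called in both WT libraries. Among the genes that held the strongest of them were APLP2, NDUFA13, DIAPH1, HABP4, PKM and TUFM, and those with the largest number of them were FRMD4A, NCAM1, FAM20C and ADAM12. In the SETD2 re-expressing line, 437 of the 1192 regions (36.7%) had a call in at least 1 of 2 libraries, beside 50.3% of all regions. In replicate 2 of that line taken alone the shares were 18.2% and 30.5%. All regions include any formed only by peaks of that line, which count as called there by construction.

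m6A is a methyl mark placed on adenosines of RNA while it is transcribed, by a complex whose catalytic subunit is METTL3 and whose partner METTL14 can bind trimethylated lysine 36 of histone H3. SETD2 is the enzyme that makes this histone mark over transcribed gene bodies, and it is often inactivated in clear cell renal cell carcinoma (ccRCC). m6A lies mostly in long internal exons and around stop codons, at GGAC and related sequences, and is read by proteins that act on splicing, export, translation and decay of the RNA.

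The measurements were MeRIP-seq peak lists, in which fragments pulled down with an antibody against m6A (IP) are compared with the unselected RNA (Input). 786-O is an established ccRCC line, and RPTEC is an hTERT-immortalized line of renal proximal tubule epithelium. In each, WT is the untreated parent, SETD2KO-1 and SETD2KO-2 are single clones inactivated by CRISPR, and SETD2KO-1R is SETD2KO-1 with a full-length FLAG-tagged SETD2 transgene, again derived as a clone. All lines were labelled as untreated, and each had 2 IP libraries, giving 16 lists over the 2 cell lines. A difference between WT and a clone therefore also holds whatever else set that clone apart. The labels do not say that libraries of a line came from separate cultures, so their spread may be technical. The lists held 25710 to 39670 peaks in 786-O and 19249 to 31207 in RPTEC. They give a whole-number score per peak whose scale is not stated, and no read counts. The depth of each library is thus not known from them, and scores were used only as percentiles within a list, where 100 is the strongest peak. A call depends on how much of a transcript was present as well as on how much of it was methylated, and fewer copies and less m6A per copy cannot be told apart in these lists. RNA levels were not analysed here.

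The SETD2 gene itself held 8 and 10 peaks in the WT libraries, 5 and 10 in SETD2KO-1, 5 and 4 in SETD2KO-2, and 7 and 9 in SETD2KO-1R. None of its 7 regions called in both WT libraries was lost. A peak on the SETD2 transcript does not report the state of the protein, so these values do not check the knockout labels. METTL3 held 1 peak in WT replicate 1, 1 in SETD2KO-1 replicate 1 and none in the other 786-O libraries. All 12 renal and 786-O marker genes examined, among them PAX8, VIM and CAV1, held a peak in each of the 8 786-O libraries. None of the 12 markers of leukocytes, endothelium, hepatocytes and muscle, such as PTPRC, PECAM1, ALB and DES, held a peak in any of them.

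The letters under a lost region could be read where it overlapped the window from 250 bases before to 50 bases after a gene start in the RefSeq promoter table of GRCh38.p14, the assembly of the peak lists' build hg38. This held for 75 lost regions. The 6 sequences that follow are the strongest of those with at least 150 covered bases and a gene symbol that is not a LOC number. LOC124901807, with a mean WT percentile of 86.5 and 2 GGAC, ranks between ERI3 and FZR1 and is left out. The 6 are shown because only in such windows could the letters under a lost region be read. The table lists more than 1 start for some genes: the RIMKLB and FZR1 regions have their midpoints 29482 bp and 16574 bp from the start of the gene body. Each is the covered stretch on the gene's strand, 5′ to 3′, in lower case with every GGAC in capitals. PLEKHO1, a pleckstrin homology domain protein, is covered at chr1:150149795-150149965 (plus strand). INHBB, the inhibin beta B subunit, is covered at chr2:120345968-120346185 (plus strand). RIMKLB, an enzyme that joins glutamate to N-acetylaspartate, is covered at chr12:8697791-8698040 (plus strand). ERI3, an exoribonuclease family member, is covered at chr1:44355208-44355362 (minus strand). FZR1, the CDH1 activator of the anaphase-promoting complex, is covered at chr19:3522732-3523005 (plus strand). CAV1, the main coat protein of caveolae, is covered at chr7:116526112-116526411 (plus strand).
PLEKHO1: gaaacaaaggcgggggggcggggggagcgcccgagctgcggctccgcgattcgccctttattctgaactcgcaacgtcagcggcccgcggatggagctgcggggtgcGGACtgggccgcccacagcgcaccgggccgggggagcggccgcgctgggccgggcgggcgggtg
INHBB: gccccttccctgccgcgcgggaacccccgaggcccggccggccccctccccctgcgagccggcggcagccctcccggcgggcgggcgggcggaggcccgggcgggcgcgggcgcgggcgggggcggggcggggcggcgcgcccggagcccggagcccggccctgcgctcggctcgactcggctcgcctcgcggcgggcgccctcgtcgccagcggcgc
RIMKLB: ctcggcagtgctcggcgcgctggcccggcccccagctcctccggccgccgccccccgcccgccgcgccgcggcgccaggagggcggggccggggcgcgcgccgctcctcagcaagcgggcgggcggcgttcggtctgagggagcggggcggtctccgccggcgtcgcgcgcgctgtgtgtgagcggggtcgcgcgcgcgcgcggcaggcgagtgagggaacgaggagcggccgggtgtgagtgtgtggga
ERI3: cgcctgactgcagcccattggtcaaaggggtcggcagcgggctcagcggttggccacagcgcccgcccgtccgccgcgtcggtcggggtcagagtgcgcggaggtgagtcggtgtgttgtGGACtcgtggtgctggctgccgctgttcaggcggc
FZR1: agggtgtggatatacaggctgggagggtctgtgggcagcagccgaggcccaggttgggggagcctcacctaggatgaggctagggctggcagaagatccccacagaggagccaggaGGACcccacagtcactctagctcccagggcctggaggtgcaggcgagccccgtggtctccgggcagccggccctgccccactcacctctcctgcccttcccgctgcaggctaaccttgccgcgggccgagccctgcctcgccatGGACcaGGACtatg
CAV1: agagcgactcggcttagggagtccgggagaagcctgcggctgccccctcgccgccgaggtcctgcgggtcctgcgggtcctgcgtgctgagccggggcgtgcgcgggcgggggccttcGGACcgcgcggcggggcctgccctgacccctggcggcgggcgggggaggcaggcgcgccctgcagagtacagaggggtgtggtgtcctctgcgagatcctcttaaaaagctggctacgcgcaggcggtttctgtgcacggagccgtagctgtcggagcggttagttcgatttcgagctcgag

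GGAC occurred 1 time in the PLEKHO1, ERI3 and CAV1 stretches and 3 times in FZR1, and 0 times in INHBB and RIMKLB. The longer form GGACT occurred 1 time each in PLEKHO1, ERI3 and FZR1. The windows cover the first bases of a transcript and sequence before it, so they are not the whole of any region. Lost regions touched 99 windows, of which 67.7% held GGAC on the gene's strand and 28.3% held GGACT. The shares over all 35116 windows of the same length were 66.3% and 25.3%, and over the 1752 windows touched by a region called in both WT and all 4 knockout libraries they were 73.6% and 24.1%. On either strand, GGAC occurred in 87.9% of windows touched by a lost region, in 87.4% of all windows and in 92.5% of those touched by a region kept in all 4 knockout libraries. GGAC is contained in GGACT, so the shares are not independent.

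Lost regions were mostly weak in WT. Their mean percentile over the 2 WT lists had a median of 34.5 (quartiles 19.5 and 53.5), against 62.2 (quartiles 42.6 and 80.5) in the 18271 regions called in both WT libraries and at least 1 knockout library. In WT replicate 1 the median percentile of the lost regions was 36.1, and in WT replicate 2 it was 33.5. Of the lost regions 338 (28.4%) had a mean above 50 and 33 (2.77%) a mean above 90. Just outside the rule were 1557 regions with 1 knockout call, whose median was 41.1, while the 9866 regions called in all 4 knockout libraries had a median of 70.2. The single knockout call came from SETD2KO-2 replicate 1, the longest of the 4 lists, in 579 regions. It came from SETD2KO-1 replicate 2 in 387, SETD2KO-1 replicate 1 in 347 and SETD2KO-2 replicate 2 in 244, and that peak had a median percentile of 37.2 in its own list. These calls and scores are from the contrast that chose the regions and are given without a test. Lost regions had a median length of 450 bp, against 947 bp for regions called in all 4 knockout libraries, although a merged region grows with the number of lists that call it. The nearest knockout peak lay at a median of 3.78 kb from a lost region (quartiles 0.944 and 15.4 kb) and within 500 bp of 201 of them (16.9%). The requirement of both WT calls set the size of the set: 7268 regions met the rule without WT replicate 1 and 5454 without WT replicate 2. With only the upper 50% of each list by score, 637 regions did.

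**Figure D1:**
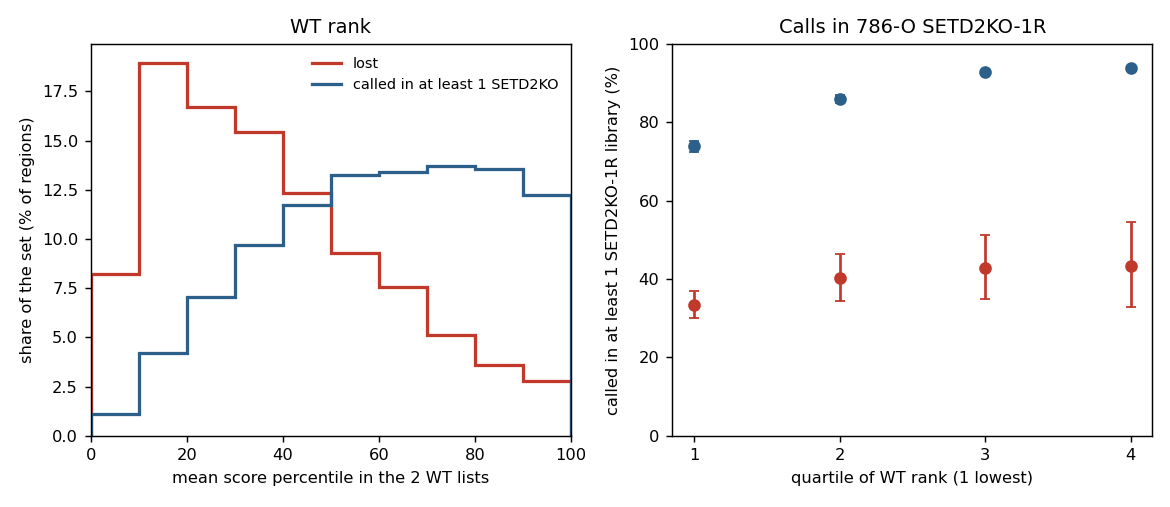
Left, the share of regions (%) by mean score percentile in the 2 786-O WT lists, for the 1192 lost regions (red) and the 18271 regions called in both WT and at least 1 knockout library (blue). Right, the percent of each set called in at least 1 of the 2 SETD2KO-1R libraries by quartile of WT rank, with Wilson 95% intervals, where the lost regions lie between 33.5% and 43.4% and the others between 73.9% and 93.8%.

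The 20 lost regions in a protein-coding gene with the highest WT ranks had mean percentiles from 91.2 to 99.9 and were short, from 265 to 777 bp with a median of 376 bp. Of these, 19 lay in a single protein-coding gene, and in 14 of those genes every knockout library called a peak elsewhere in the gene. The highest was in APLP2, a relative of the amyloid precursor protein, at chr11:130121928-130122347. It ranked at percentiles of 99.9 and 99.8 in the WT lists and was called in neither SETD2KO-1R library, while a knockout peak lay 286 bp away. APLP2 held 4 and 6 peaks in WT, 3 and 6 in SETD2KO-1 and 4 and 4 in SETD2KO-2, so the gene stayed covered and the call at this position ended. The NDUFA13 region, at chr19:19527460-19528071 and 433 bp from the gene's end, ranked at 99.4 and 99.7. NDUFA13 encodes a subunit of respiratory complex I. This was its only peak in either WT library, and no knockout library called a peak anywhere in the gene.

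DIAPH1, a formin that nucleates actin filaments, had its lost region at chr5:141575130-141575476 with percentiles of 97.3 and 99.2 in WT. SETD2KO-1R replicate 1 called it at 95.1 and replicate 2 did not. HABP4, an RNA- and hyaluronan-binding protein, had percentiles of 97.4 and 97.3 in WT and no call in SETD2KO-1R. PKM, the pyruvate kinase of glycolysis, had percentiles of 96.2 and 96.4 at chr15:72209857-72210213, also with no call in SETD2KO-1R, and a knockout peak lay 327 bp away. The APLP2 and PKM regions were those of the 20 with a knockout peak within 500 bp. Its other 3 regions called in both WT libraries included 2 that all 4 knockout libraries kept. TUFM, the mitochondrial translation elongation factor Tu, was the only region of the 20 called in both SETD2KO-1R libraries. At chr16:28843100-28843494 it ranked at 98.2 and 94.1 in WT and at 92.1 and 96.3 in SETD2KO-1R.

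The remaining regions of the 20 lay in PLEKHO1, JCAD, NUB1, ANKRD36, STX6, MYEF2, CCT5, API5, INHBB, ARMC9, DDX27, SLFN13, CHLSN and IP6K2. The INHBB region also overlaps the neighbouring LOC105373989 and is named for both. JCAD, a protein of endothelial cell junctions, was called at a percentile of 94.2 in SETD2KO-1R replicate 2. STX6, a SNARE protein of the trans-Golgi network, was called at 91.7 in SETD2KO-1R replicate 1. MYEF2, an RNA-binding protein, was called at 97.2 and API5, an inhibitor of apoptosis, at 89.2 in the same library. CCT5, a subunit of the TRiC chaperonin, NUB1, which lowers NEDD8 levels, and IP6K2, an inositol phosphate kinase, had no call there. In all, SETD2KO-1R called 8 of the 20 regions, 7 of them in a single library.

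**Figure D2:**
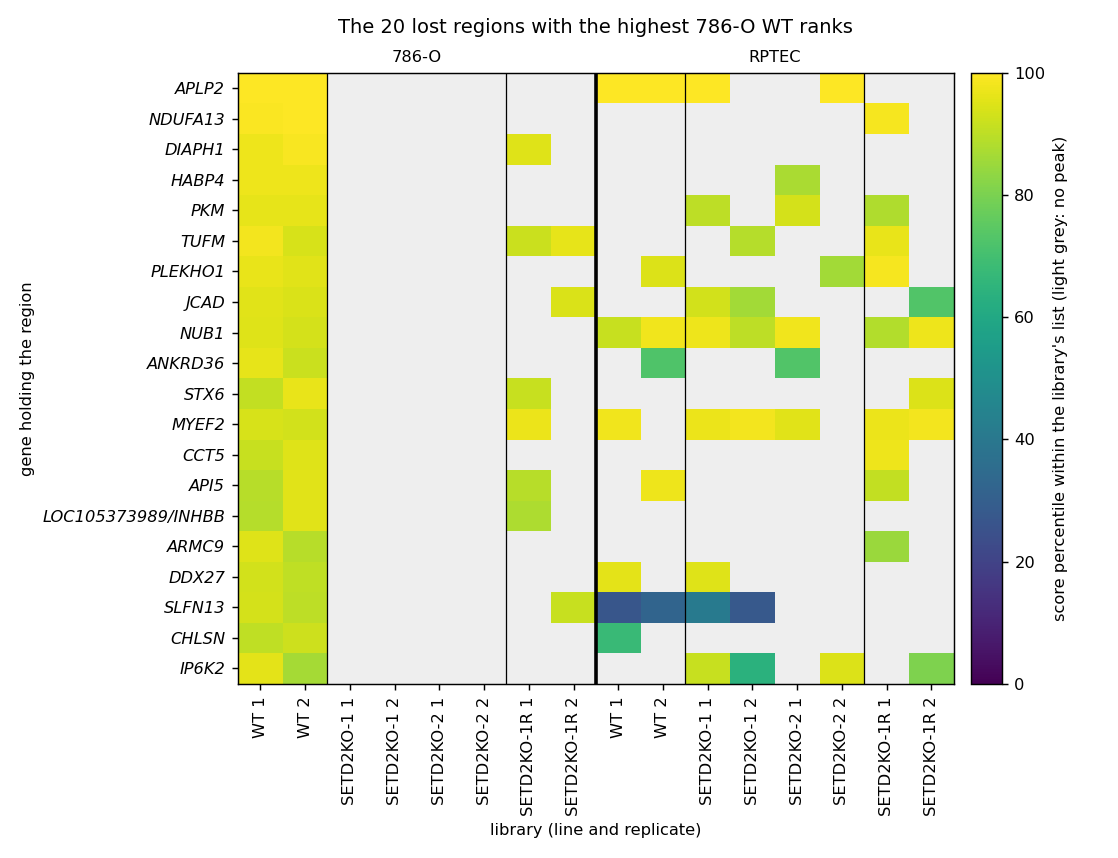
Score percentile (colour, 0 to 100) of the 20 lost regions with the highest 786-O WT ranks in each of the 16 libraries, with light grey where the library had no peak. The 4 knockout columns of 786-O are empty by the rule, 8 regions have a call in SETD2KO-1R, and 18 have a call in at least 1 RPTEC library. Of all regions called in both 786-O WT libraries, 91.2% have a call in at least 1 RPTEC library.

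The 2 SETD2KO-1R lists entered the merging of peaks but not the choice of the lost regions. Replicate 1 called 336 lost regions (28.2%) and replicate 2 called 217 (18.2%). At least 1 of them called 437, which is 36.7% (Wilson 95% interval 34.0 to 39.4), and both called 116, which is 9.73% (8.18 to 11.5). The intervals cover counting error only. Over all 78903 regions the shares were 50.3% and 18.4%. These regions include any formed only by SETD2KO-1R peaks, which by construction count as called in at least 1 of its libraries. The regions with 1 knockout call were called in at least 1 SETD2KO-1R library in 56.7% and in both in 17.7% of cases, and the regions kept in all 4 knockout libraries in 96.2% and 77.6%. The lost regions thus had the lowest shares of these sets, and 755 of them (63.3%) were called in neither SETD2KO-1R library. No test was made, since the WT and knockout calls that SETD2KO-1R would be set against chose the regions. The share called in at least 1 SETD2KO-1R library was 19.0% when the regions were chosen without WT replicate 1, 21.9% without WT replicate 2, and 18.1% when SETD2KO-1R replicate 1 was left out, where a single library could call. The share called in both was 3.37% and 4.35% without WT replicate 1 and 2.

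The shares were also read within quartiles of WT rank, since the lost regions were mostly weak in WT. Of the lost regions, 60.7% fell in the lowest quartile of all regions called in both WT libraries, with a mean percentile of up to 40.6, and 6.38% in the highest. SETD2KO-1R called 33.5% of the lost regions of the lowest quartile, 40.3% and 42.9% of those of the middle quartiles and 43.4% of those of the highest. For the regions with at least 1 knockout call the shares were 73.9%, 86.1%, 92.8% and 93.8%. Ranks were not matched within a quartile, and the sets also differ by the knockout calls that define them, so the part of WT rank in these shares was not tested. Lost regions that SETD2KO-1R called were also weak there: their median percentile was 36.7 in replicate 1 and 38.1 in replicate 2, against 71.6 and 71.9 for regions kept in all 4 knockout libraries.

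Lost regions in a protein-coding gene that both SETD2KO-1R libraries called were ranked over the WT and SETD2KO-1R lists together. Among the 10 highest of these, after TUFM came ACACA, acetyl-CoA carboxylase of fatty acid synthesis. Its region at chr17:37097972-37098401 ranked at 91.2 and 89.5 in WT and 90.5 and 92.8 in SETD2KO-1R. PSD3, an exchange factor for ARF6, had percentiles of 91.5 and 72.2 in WT and 92.5 and 93.5 in SETD2KO-1R. The region shared by PCGF3, a Polycomb protein, and LOC124900163 ranked higher in SETD2KO-1R, at 98.7 and 95.8, than in WT, at 59.1 and 74.3. AGFG1 had percentiles of 80.9 and 63.4 in WT and 91.3 and 86.0 in SETD2KO-1R, and MAP3K14, the kinase NIK of the noncanonical NF-kB pathway, 64.7 and 84.5 against 77.0 and 90.6. In RIMKLB the ranks ran from 92.8 and 84.5 in WT to 71.6 and 56.7 in SETD2KO-1R. NRXN3, a presynaptic adhesion protein, had 84.8 and 92.6 in WT and 51.5 and 67.1 in SETD2KO-1R, with no knockout peak within the gene. LOC124901807 and the region shared by GPSM2 and CLCC1 completed the 10.

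**Figure D3:**
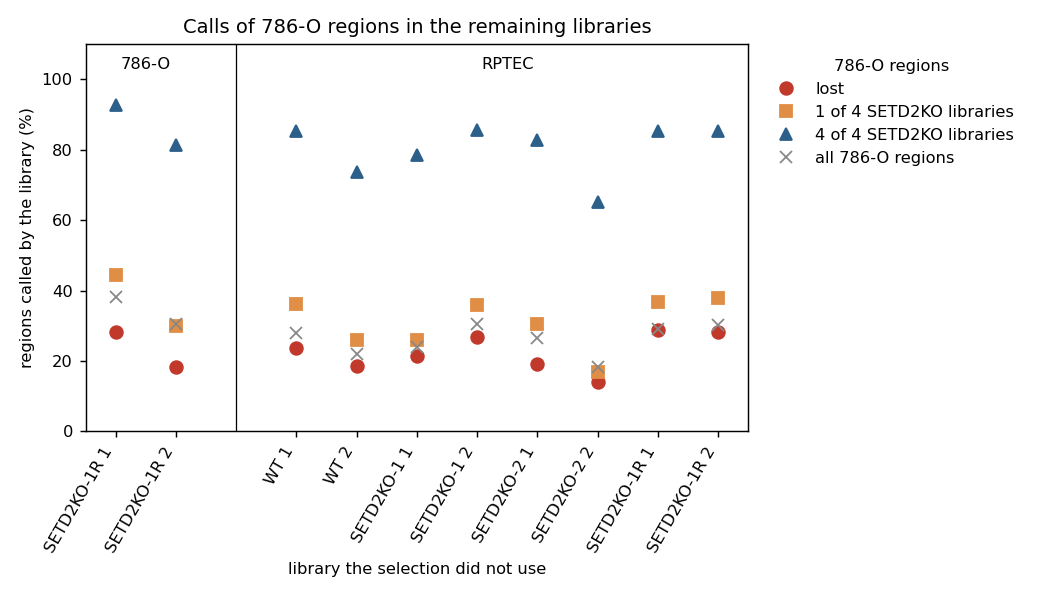
Percent of 786-O regions called by each library that the selection did not use, the 2 786-O SETD2KO-1R and the 8 RPTEC libraries, for lost regions (circles), regions with 1 knockout call (squares), regions called in all 4 knockout libraries (triangles) and all 786-O regions (crosses). Lost regions lie between 13.9% and 28.7% in every library and below the other sets called in both WT.

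By gene, 1039 of the lost regions overlapped a protein-coding gene body, 1000 of them a single one, and they fell in 924 genes. These were 11.0% of the 8395 protein-coding genes with a region called in both WT libraries. Most genes, 811, held 1 lost region, 113 held at least 2 and 11 at least 4. Of the 924 genes, 605 (65.5%) held a peak in each of the 4 knockout libraries, and 476 (51.5%) held another region that all 4 kept. Over the 8395 genes these shares were 81.4% and 70.4%. No knockout peak was called in 117 of the 924 genes (12.7%) and in 1.48% of the 8395, a measure that the choice of the regions favours. At least 1 SETD2KO-1R library called a peak in 66 of these 117 (56.4%), and both did in 29 (24.8%), beside 96.2% and 84.05% of the 8395. At least 1 RPTEC library called a peak in 94 of them (80.3%), beside 97.8% of the 8395. A region gained in the knockouts, called in all 4 of their libraries and in neither WT library, lay in 35 of the 924 genes (3.79%) and in 3.43% of the 8395.

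The 10 genes with the most lost regions held 47 of them, with mean WT percentiles from 6.76 to 91.0. FRMD4A, a scaffold of epithelial polarity, held 7 lost regions among 24 called in both WT libraries, and 5 of the 24 were kept in all 4 knockout libraries. Its peaks numbered 36 and 40 in WT, 20 and 24 in SETD2KO-1, 20 and 14 in SETD2KO-2, and 15 and 14 in SETD2KO-1R, so the 6 clonal libraries lay below WT. NCAM1, a neural cell adhesion molecule, held 6. It had 15 and 17 peaks in WT, 0 and 1 in SETD2KO-1, 1 and 2 in SETD2KO-2, and 0 in both SETD2KO-1R libraries. NCAM1 and FRMD4A thus stayed low with SETD2 re-expressed, and none of their 13 lost regions was called there. ADAM12, a membrane metalloprotease, behaved alike: it held 5 lost regions, with 15 and 17 peaks in WT, 2 and 8 in SETD2KO-1, 4 and 5 in SETD2KO-2 and 3 and 3 in SETD2KO-1R, and none of its lost regions was called in SETD2KO-1R.

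In FAM20C and TIAM2 every lost region had a call in SETD2KO-1R. FAM20C, the Golgi kinase of secreted proteins, had 17 and 17 peaks in WT, 5 and 6 in SETD2KO-1, 7 and 4 in SETD2KO-2, and 16 and 8 in SETD2KO-1R. All 5 of its lost regions were called in at least 1 SETD2KO-1R library and 2 in both. TIAM2, an activator of the GTPase RAC1, had 5 and 6 peaks in WT, none in the 4 knockout libraries, and 4 and 4 in SETD2KO-1R, which called each of its 4 lost regions, 3 of them in both libraries. Its region at chr6:155256545-155256971 is shared with TFB1M. MELTF, melanotransferrin, had 6 and 8 peaks in WT, 1 over the 4 knockout libraries, and 8 and 5 in SETD2KO-1R, where 2 of its 4 lost regions were called, neither in both libraries. GLI2, a transcription factor of Hedgehog signalling, had 6 and 5 peaks in WT, none in the knockouts, and 2 and 4 in SETD2KO-1R. Of its 4 lost regions 3 lay within 4 kb of the gene's end, the last at chr2:120990804-120992321, and 2 were called in both SETD2KO-1R libraries. AFF3, a nuclear protein of the AF4 family, had 6 and 20 peaks in WT, 1 over the 4 knockout libraries, and 6 and 2 in SETD2KO-1R. EVC2, which acts with Hedgehog signalling at the cilium, had 5 and 5, none, and 1 and 1. In AFF3 and in EVC2, too, 2 of 4 lost regions were called in SETD2KO-1R, each in a single library. CREB5, a leucine zipper factor, had 9 and 12 peaks in WT, 3 and 6 in SETD2KO-1, 3 and 3 in SETD2KO-2, and 7 and 1 in SETD2KO-1R. Of the 4 lost regions of CREB5, 1 was called in a single SETD2KO-1R library. WT lay above all 4 knockout libraries in each of the 10 genes, but the choice of genes with the most lost regions keeps their knockout counts low, so neither this nor a higher count in SETD2KO-1R is independent of it.

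**Figure D4:**
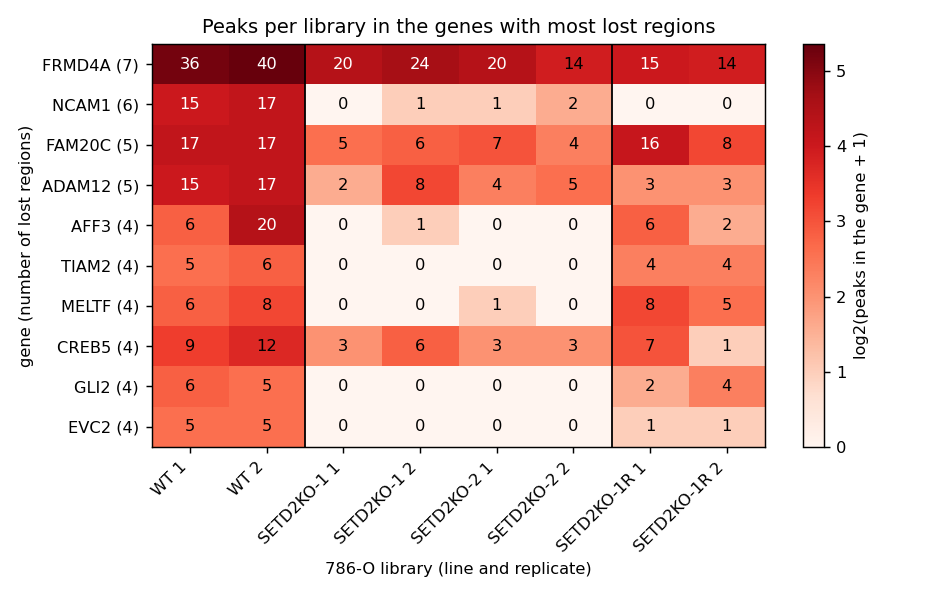
Number of peaks called in the gene body in each 786-O library, for the 10 protein-coding genes with the most lost regions (number of lost regions in brackets). Colour is log2(peaks + 1), and the printed number is the count. NCAM1 and ADAM12 stay low in SETD2KO-1R, while FAM20C, TIAM2, MELTF, GLI2, AFF3 and EVC2 hold more peaks there than in any knockout library. The knockout counts are low by the choice of genes.

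Of the genes without any knockout peak, the 10 with the highest WT percentile, averaged over all lost regions of the gene, had 1 to 3 peaks per WT library. After NDUFA13 these were LOC124901807, LOC105373989, RAB42, TBRG1, AGFG1, DLST, RNF17, VWA1 and KRT19. DLST, a subunit of the oxoglutarate dehydrogenase complex of the citric acid cycle, had 1 peak in each WT and each SETD2KO-1R library. Its region at chr14:74901938-74902259 ranked at 67.3 and 75.2 in WT and 70.5 and 65.0 in SETD2KO-1R. KRT19, an epithelial keratin, had 1 and 2 peaks in WT and none in the knockouts or in SETD2KO-1R, and 1 or 2 peaks in each of the 8 RPTEC libraries. VWA1, an extracellular matrix protein, had 1 peak in each WT library and none in SETD2KO-1R. RNF17 shares its region with CPAP.

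The genes of 18 pathway and function lists were also read. Of 346 listed genes with a region called in both WT libraries, 38 (11.0%) held a lost region, as did 11.0% of all such genes. Among the histone and DNA methylation enzymes and chromatin regulators it was 7 of 35: SETD5, SMYD2, KDM4A, KDM4B, KDM5A, BAP1 and TET3. BAP1, a deubiquitinase that is a ccRCC tumour suppressor, had a region at chr3:52406880-52407143 with percentiles of 90.7 and 84.5 in WT and no call in SETD2KO-1R, and a knockout peak lay 240 bp away. SETD5, a SET domain protein, had one at chr3:9447480-9447751 with 82.4 and 91.6 and a knockout peak 408 bp away. KDM4A, a demethylase of the mark that SETD2 makes, had one with 67.3 and 43.8, and its relative KDM4B one with 1.30 and 23.6. SMYD2, a lysine methyltransferase, had no peak in the knockouts, against 1 and 3 in WT and 2 and 1 in SETD2KO-1R, but its lost region, with 8.92 and 15.6 in WT, was called in neither SETD2KO-1R library. Of the m6A writers, erasers and readers 2 of 18 (11.1%) held one, the demethylase ALKBH5, with 30.6 and 1.75 in WT, and the nuclear reader YTHDC1, with 26.5 and 29.1. YTHDC1 was called in both SETD2KO-1R libraries, at 5.23 and 16.9.

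In the TGF-beta and SMAD list 5 of 24 genes (20.8%) held a lost region: SMAD2, SMAD5, SMAD7, INHBA and INHBB. All 5 also held another region kept in all 4 knockout libraries. INHBA, the subunit of activin A, held 2 lost regions, at chr7:41700160-41700762 with percentiles of 86.7 and 94.4 and at chr7:41699561-41699882 with 53.3 and 45.9, and SETD2KO-1R called neither. SMAD7, the inhibitory SMAD, had percentiles of 30.6 and 15.6. In fatty acid oxidation it was 3 of 12 genes, ACADVL, ACOX3 and ETFA. The ACADVL region is shared with DLG4 and ranked at 23.4 and 0.826 in WT. Lipid and sterol synthesis had 2 of 24 (8.33%), ACACA and the sterol desaturase SC5D.

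Of the hypoxia-inducible targets 2 of 22 (9.09%) held a lost region. VEGFA, the angiogenic growth factor, had one with 76.7 and 56.7 in WT that both SETD2KO-1R libraries called, at 82.0 and 38.1. EPAS1, which encodes HIF2-alpha, had one with 15.3 and 10.2 that neither called. Receptor tyrosine kinases had 2 of 14 (14.3%), IGF1R and EPHA2, and the Hippo list 2 of 18 (11.1%), TEAD1 and LATS1. Extracellular matrix and adhesion had 2 of 20 (10.0%), LAMC1 and COL5A1, a fibrillar collagen chain with 2 and 3 peaks in WT and none in the 6 other 786-O libraries. DNA repair and replication had 3 of 31 (9.68%), RAD50, POLE and RRM2, and the p53 and cell cycle list 2 of 23 (8.70%), the kinase CDK2 and its inhibitor CDKN1B. CDK2 had 1 peak in each WT library and none in the other 6. The epithelial-mesenchymal list had 1 of 12 (8.33%), TJP1; Notch 1 of 13 (7.69%), NOTCH2; the kidney lineage and ccRCC list 1 of 15 (6.67%), RPTOR; the cullin ligase list 1 of 17 (5.88%), CUL4A; and the splicing factors 1 of 22 (4.55%), SF3A1. In the Wnt list none of 22 genes did. The RPTOR region is shared with LOC124904075. The lists are small, a gene with many regions has more chances to hold a lost one, and no list was tested.

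By position, 86.3% of lost regions had their midpoint in a protein-coding gene, 7.05% in another gene only and 6.63% in no gene, against 88.7%, 6.27% and 5.04% where at least 1 knockout library shared the WT call. Along the 836 lost regions in a single gene of known strand, the median position was at 55.8% of the gene's length from its start, against 69.4% in the 6916 regions kept in all 4 knockout libraries. It was 51.0% in regions with 1 knockout call and 55.8% in those with 2 or 3, so the lost regions did not stand apart from these. Of the lost regions 7.42% lay within 1 kb of the gene's start (Wilson 95% interval 5.83 to 9.39) and 5.62% within 1 kb of its end. For regions with at least 1 knockout call the shares were 11.1% (10.6 to 11.7) and 6.71%. Lost regions overlapped a promoter window in 6.29% of cases (5.05 to 7.82) and the others in 12.1% (11.6 to 12.5). Their genes were longer, with a median of 82.7 kb against 53.8 kb. Over all 78903 regions, 7.57% of those in a single stranded gene lay within 1 kb of its start, the median position was 54.9%, the median gene length 70.3 kb, and 6.81% of regions overlapped a promoter window. The lost regions were near these values in position and promoter overlap. Whether they are exonic or intronic was not analysed here. By chromosome the share of regions called in both WT that were lost ran from 2.28% on chromosome 16 and 2.95% on chromosome 22 to 8.27% on chromosome 11 and 8.42% on chromosome 10. No test of location was made.

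**Figure D5:**
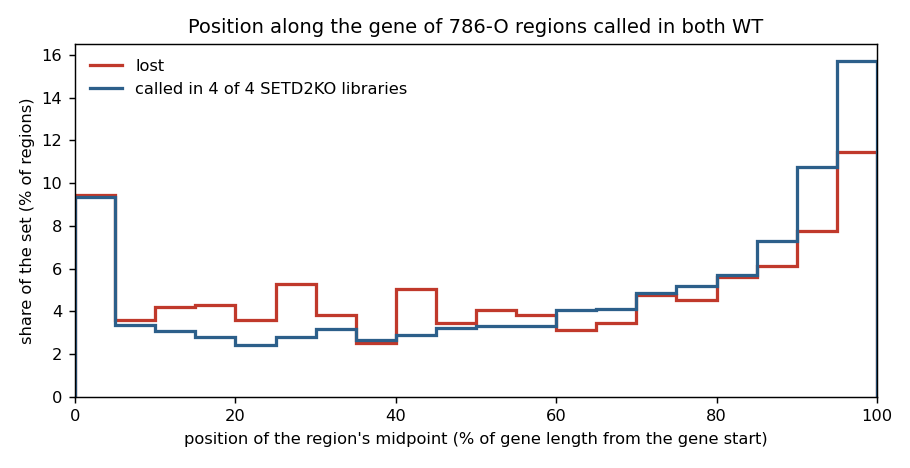
Share of regions (%) by position of the midpoint along the gene, from start (0%) to end (100%), in bins of 5%, for 836 lost regions (red) and 6916 regions kept in all 4 knockout libraries (blue). The last bin holds 11.5% of the lost and 15.7% of the kept regions. Regions with 1, 2 or 3 knockout calls are not shown.

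The RPTEC libraries played no part in the selection. Of the lost regions, 738 (61.9%) were overlapped by a peak of at least 1 RPTEC library and 24 (2.01%) by all 8. The shares were 57.6% and 6.92% over all 786-O regions, and 91.2% and 26.2% over the regions called in both 786-O WT libraries. The WT libraries called 23.7% and 18.6% of them, SETD2KO-1 21.4% and 26.8%, SETD2KO-2 19.1% and 13.9%, and SETD2KO-1R 28.7% and 28.1%. The WT values lay within the range of the 4 knockout libraries, and the SETD2KO-1R values lay above all of them. The mean was 21.1% ± 3.56 in WT (SD, n = 2) and 20.3% ± 5.36 in SETD2KO (SD, n = 4), a difference of 0.818 percentage points (two-sided exact permutation test, p = 0.867; Benjamini-Hochberg adjusted p = 0.867 over 4 tests). The difference turned to -1.70 without RPTEC WT replicate 1, -1.31 without RPTEC SETD2KO-2 replicate 2 and -0.385 without 786-O WT replicate 1, and was 3.36 with lists of equal length. WT and SETD2KO-1R together averaged 24.8% ± 4.67 (SD, n = 4), 4.45 percentage points above SETD2KO (exact permutation p = 0.257, adjusted p = 0.514). This difference was 1.97 without 786-O WT replicate 1, and 4.14 with lists of equal length (exact permutation p = 0.0286, adjusted p = 0.0571). The smallest p that these designs allow is 0.0667 and 0.0286.

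The RPTEC lists differ in length, so each rate was also divided by the share of the 19463 regions called in both 786-O WT that the same library called, which ran from 44.7% to 69.9%. The log2 of this ratio was -1.52 and -1.53 in RPTEC WT, -1.44 and -1.38 in SETD2KO-1, -1.76 and -1.68 in SETD2KO-2, and -1.27 and -1.30 in SETD2KO-1R. The values of a line lay close together, and SETD2KO-1 and SETD2KO-2 lay on either side of WT. The difference was 0.04 on the log2 scale between WT and SETD2KO (exact permutation p = 0.800, adjusted p = 0.867) and 0.16 between SETD2-expressing and SETD2KO libraries (exact permutation p = 0.229, adjusted p = 0.514). The first of these was -0.021 without 786-O WT replicate 1, -0.025 without RPTEC SETD2KO-2 replicate 1, 0.18 without 786-O WT replicate 2 and 0.17 with lists of equal length. After adjustment over 4 tests the smallest p these designs allow is 0.0571, so none of the tests could pass 0.05 and their p-values do not show that the rates were the same. The tests also take libraries of a line as independent.

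Both RPTEC WT libraries called 128 of the lost regions. Of these, 30 (23.4%) were called in all 4 RPTEC knockout libraries and 14 (10.9%) in none. Both RPTEC WT libraries also called 236 of the regions with 1 786-O knockout call. Of those 236, 39 (16.5%) were called in all 4 RPTEC knockout libraries and 40 (16.9%) in none, so the share in none was not particular to the lost regions. Of the 9205 regions that both WT libraries of both cell lines called, 58.5% were called in all 4 RPTEC knockout libraries and 1.92% in none, and among all 786-O regions called in both RPTEC WT the shares were 47.6% and 5.61%. The 14 are 1.17% of the 1192 lost regions (Wilson 95% interval 0.701 to 1.96), beside 0.909% of the 19463 regions called in both 786-O WT. Among the 1557 regions with 1 786-O knockout call the share was higher, at 2.57% (1.89 to 3.48). Of the 14, 13 lay in a protein-coding gene, most of them at low WT ranks: 1 of the 13 met the rule with the better-scoring 50% of all lists or of the WT lists, and 5 with lists of equal length. The strongest was the INHBA region described above, which ranked at 74.9 and 88.0 in RPTEC WT and at 85.5 and 84.4 in RPTEC SETD2KO-1R, but had no call in 786-O SETD2KO-1R. The others lay in ENPP4, TRO, ADRA1B, KANSL1, SLC35G1, TTC39C, RECK, TESMIN, ZNF587B, NIPAL3, PRR4 and ZNF384. SLC35G1, a membrane transporter-like protein, was called in all 8 WT and SETD2KO-1R libraries of both cell lines and in none of the 8 knockout libraries, and held no peak anywhere in the gene in the knockouts. Its region at chr10:93900597-93901286 ranked at 11.4 and 65.4 in 786-O WT, 22.3 and 26.9 in 786-O SETD2KO-1R, 16.9 and 7.07 in RPTEC WT and 38.0 and 51.1 in RPTEC SETD2KO-1R. KANSL1, a subunit of the NSL acetyltransferase complex, was called in all 4 SETD2-expressing libraries of RPTEC, at 32.1, 55.2, 44.3 and 52.7, but in 786-O in WT alone, at 51.0 and 30.5. RECK, a membrane-anchored inhibitor of metalloproteases, had percentiles of 12.5 and 52.96 in 786-O WT and 2.04 and 32.4 in RPTEC WT. ADRA1B, an alpha-1 adrenergic receptor, had 49.4 and 41.8 in 786-O WT, 80.9 in 786-O SETD2KO-1R replicate 2, and 49.0 and 61.4 in RPTEC WT.

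The number of RPTEC peaks in the genes with the most lost regions followed no single order. MELTF, the transferrin homologue at the cell surface, had 3 and 1 peaks in RPTEC WT, none in the 4 RPTEC knockout libraries, and 5 and 7 in SETD2KO-1R, so that its knockout libraries were lowest in both cell lines. FRMD4A had 11 and 16 peaks in RPTEC WT, 6 and 4 in SETD2KO-1, 6 and 5 in SETD2KO-2, and 11 and 11 in SETD2KO-1R. In RPTEC its knockout libraries were thus lowest too. NCAM1 ran the other way, with no peak in RPTEC WT, 7 and 5 in SETD2KO-1, 5 and 6 in SETD2KO-2, and 4 and 2 in SETD2KO-1R. ADAM12 had 4 and 3 peaks in RPTEC WT and more in every other RPTEC library, from 5 to 16. AFF3 and EVC2 had no RPTEC peak. In FAM20C, TIAM2, CREB5 and GLI2 the RPTEC WT and knockout counts overlapped. COL5A1 had none in RPTEC WT and SETD2KO-2, 11 and 13 in SETD2KO-1, and 15 and 20 in SETD2KO-1R, so its calls were found in the clone SETD2KO-1 and in the line made from it.

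Among the 20 strongest lost regions, 18 were called in RPTEC, in up to 7 libraries. Of all regions called in both 786-O WT libraries, 91.2% had a call in at least 1 RPTEC library, a similar share. NUB1 was called in every RPTEC library but SETD2KO-2 replicate 2, at percentiles from 88.6 to 97.9. MYEF2 was called in 6, at 95.4 to 98.1, in knockout and SETD2-expressing libraries alike. APLP2 was called in both RPTEC WT libraries, in SETD2KO-1 replicate 1 and in SETD2KO-2 replicate 2, at 99.9 or above in each, and in neither SETD2KO-1R library. DIAPH1 and INHBB had no call there.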

How the data were processed

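m6A peaks were analysed in 16 IP libraries, 2 each of 4 lines of 786-O and of RPTEC. The 16 Input samples have no peak lists of their own. Per the study's methods and the labels, the authors fragmented total RNA, immunoprecipitated it with an anti-m6A antibody, prepared stranded libraries, aligned reads to hg38 with STAR and called peaks with MACS2 for IP over Input in each library. A spike-in of bacterial RNA was used by the authors for scaling, and its effect on the lists is not given in the sources used here. The deposited lists hold peak positions, a summit and a whole-number score of unstated scale, and no strand, reads or fold enrichment. The study's methods state a minimum number of reads per sample, but the depth of each library, on which peak calls depend, is not known from the lists.

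From the deposited scores, percentiles were computed within each list. Where several peaks of a list overlapped a region, the highest score was used. Peaks of the 8 786-O lists that overlapped or touched were merged, and 1 bp of overlap was a call. RPTEC peaks were laid over these regions. Genes were the gene bodies of the RefSeq table of GRCh38.p14 (59679 genes), which holds no exons, and strand came from its promoter table. Analyses used Python 3.11.15, pandas 2.3.3, numpy 2.4.6, scipy 1.17.1 and matplotlib 3.10.9. The selection code was run on 20000 simulated regions with 200 planted losses, of which 200 were recovered with 0 false ones. Every other simulated region was given a knockout call, so this checks the code only and gives no error rate for the real lists. WT and knockout calls of 786-O chose the regions and were not tested. RPTEC call rates were compared by two-sided exact permutation tests over libraries, with Benjamini-Hochberg adjustment over 4 tests. Wilson intervals at 95% cover counting error over regions only. Replicate numbers were not used as pairs, since deviations of same-numbered RPTEC libraries correlated between -0.13 and 0.13 over line pairs.

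The regions, gene lists and markers were chosen with earlier results of these data known. Named were the 20 lost regions in a protein-coding gene with the highest mean WT percentile, the 10 genes with the most lost regions (ties by percentile), the 10 strongest genes without a knockout peak, the 10 strongest regions called in both SETD2KO-1R libraries, listed genes with a lost region, and lost regions in a gene that both RPTEC WT and no RPTEC knockout library called, with SETD2 and METTL3. Results for some listed genes are not reported here. Alternatives changed score thresholds, peak numbers, merging, overlap, absence and the libraries used.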

Additional observations from a re-analysis of the deposited data

How the results depend on the processing

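The number of lost regions and of their protein-coding genes depended on the threshold of the lists. When only the better-scoring 50% of peaks was kept in all lists, the rule found 637 regions in 557 genes, and with the upper 50% of the WT lists only, 246 in 233. With at most 1 knockout call allowed there were 2749 in 2038 genes, with absence asked of SETD2KO-1 alone 2311 in 1713, and of SETD2KO-2 alone 2254 in 1732. Leaving out each 786-O library in turn gave 1198 to 7268 regions in 929 to 4086 genes, the highest without WT replicate 1, and 5454 regions without WT replicate 2. The other settings gave 937 to 1194 regions, the highest when touching peaks were not merged, an alternative chosen after seeing the data. Overlap of at least 50% could change no 786-O call, since each peak lies inside its region.

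The share called in at least 1 SETD2KO-1R library was 46.1% after all lists were shortened to equal length, 45.1% with the upper 50% of the WT lists, 48.0% with at most 1 knockout call, 48.5% for SETD2KO-1 alone and 47.9% for SETD2KO-2 alone, and 18.1% to 43.7% leaving out each library in turn. The share called in both was 3.37% to 15.1%, the lowest without WT replicate 1.

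The RPTEC difference between WT and SETD2KO changed sign without 786-O WT replicate 1 (-0.385 percentage points), RPTEC WT replicate 1 (-1.70) and RPTEC SETD2KO-2 replicate 2 (-1.31), with a range of -1.70 to 3.33 leaving out each library. Its relative form changed sign without 786-O WT replicate 1 (-0.021) and RPTEC SETD2KO-2 replicate 1 (-0.025), with a range of -0.025 to 0.18. The cause was not tested. After all lists were shortened to equal length these differences were 3.36 percentage points and 0.17, each with an exact permutation p of 0.133. The difference between SETD2-expressing and SETD2KO libraries was positive under every alternative run (call rate 1.97 to 6.62 percentage points, relative rate 0.09 to 0.25 on the log2 scale). After all lists were shortened to equal length it was 4.14 percentage points and 0.17, with an exact permutation p of 0.0286, the smallest the design allows, and an adjusted p of 0.0571. No smaller adjusted p could be reached in these designs, so the adjusted values say nothing about stability. With a replicate block the differences were 0.818 and 4.45 percentage points and 0.04 and 0.16 on the log2 scale, with exact permutation p of 1, 0.278, 0.778 and 0.278, and no call changed.

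Of the 20 strongest regions, 18 met the rule when no knockout peak was allowed within 500 bp and 20 with the better-scoring 50% of all lists or with lists of equal length. Leaving out a WT or knockout library, allowing 1 knockout call or asking absence of 1 clone only relaxes the rule and could remove none. Of the 38 listed genes with a lost region, 12 held one with the better-scoring 50% of all lists, 24 with lists of equal length and 10 with the better-scoring 50% of the WT lists. Of the 10 genes with the most lost regions, 7 to 10 still held one under each alternative. Of the 13 regions in a gene that were lost in RPTEC too, 1 to 5 did in 3 alternatives and 9 to 13 in the others.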
